A study of Mus musculus with 12 samples.

Results

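Astrocytes clear potassium and water from the space around neurons, and 8 genes of this task were followed through the first postnatal weeks of the mouse cerebellum: Kcnj10, Kcnj16, Aqp4, Dag1, Mlc1, Hepacam, Clcn2 and Atp1b2. They were chosen by symbol, all 8 were found among the 24421 entries of the expression table, and all 8 passed the filter on low values that left 15464 genes for testing. The samples were cells sorted for green fluorescence from the cerebellum of Aldh1l1-GFP mice, in which the promoter of the astrocyte gene Aldh1l1 drives the fluorescent protein. All 4 groups carry this reporter, and their sample titles set them apart by age, P1, P7, P14 and P28 (postnatal day 1, 7, 14 and 28). Each has 3 libraries, 12 in all, from mice of both sexes on a C57/BL6J background. The sort takes every cell in which the reporter is active, and a group without the reporter or without sorting was not analysed here. The question put to the 8 genes was when in this period each one changed, and whether genes whose proteins work together changed by the same amount.

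Active neurons release potassium, and astrocytes take it up through inwardly rectifying potassium channels and through the sodium pump, which exchanges sodium for potassium at the cost of ATP. Water follows through aquaporin channels that are packed into the astrocyte endfeet around blood vessels, where a dystrophin-linked protein complex anchors them to the basement membrane. A membrane complex of MLC1 and GlialCAM, the product of Hepacam, sits at the contacts between endfeet, helps cells to recover their volume after swelling, and is the site of mutations in megalencephalic leukoencephalopathy with subcortical cysts. In the cerebellum these proteins are found in Bergmann glia, in velate astrocytes of the granular layer and in fibrous astrocytes of the white matter.

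The libraries held 6399499 to 14733985 reads on genes, with the lowest number in P7 replicate 2. The deposited values are normalized counts, that is, reads divided by a size factor of the library, and all levels below are on this scale unless a level per kilobase of exon is named. The labelled cell type was checked with 12 astrocyte markers, none of which was at 0 in all libraries of an age, with a summed level of 63034.6 to 79455.5 in P1, 24650.6 to 44188.7 in P7, 158651 to 194647 in P14 and 347305 to 413187 in P28. From P1 to P7, 8 of the 12 fell and 2 rose, and 10 and 8 of them rose in the later steps. Markers of other cells moved too. The summed level of 10 oligodendrocyte markers ran from 1569.75 to 2646.42 at P1, from 22398.1 to 34555.6 at P7, from 349451 to 397877 at P14 and from 105832 to 146521 at P28, and none of the 10 was at 0 in all libraries of an age. That of 8 ependyma and choroid plexus markers was 1722.71 to 4010.35 at P1 and 48606.6 to 128513 at P7, and it was 1557.29 in P14 replicate 3 against up to 110321 in the other libraries of that age, and it ran from 18114.3 to 183029 at P28. The 8 markers of dividing cells summed to at least 9025.96 at P1 and P7 and to at most 1872.39 at P14 and P28, and 8 neuron markers to at most 8428.85 at P1 and P7 and at least 13392.2 thereafter. P7 replicate 2 had the lowest astrocyte markers and the highest ependyma and choroid plexus markers of its age, and calls of named genes from P1 to P7 or from P7 to P14 that are lost or gained without it are given with both values.

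All 8 genes had higher means at P14 and P28 than at P7, and all but Aqp4 had a lower mean at P7 than at P1. For 5 of them, Kcnj10, Dag1, Mlc1, Hepacam and Atp1b2, this fall passed the test (limma, adjusted p under 0.05). In this step 4.24% of all genes tested fell, 3.47% rose and 7.70% changed in either direction. From P7 to P14, 7 of 8 rose, where 10.8% of all genes rose, 10.0% fell and 20.9% changed. From P14 to P28 all 8 rose, where 5.68% of all genes rose, 8.76% fell and 14.4% changed. The median log2 fold change of the 8 was -0.99, 2.31 and 1.04 in these 3 steps, beside 0.04, -0.09 and -0.12 over all genes tested. In bulk RNA, fewer cells of a type in the sorted pool and less RNA of a gene per cell cannot be told apart, and this holds for every change below. P28 had the highest mean for each of the 8 genes and P7 the lowest for all but Aqp4, an order that 15.3% of all genes tested showed. All libraries of P7 lay below all of P1 for 6 of the 8 genes (18.2% of all genes). All libraries of P14 lay above all of P7 for each of the 8 genes (21.3% of all genes), and all of P28 above all of P14 (11.7%). Across the whole period, 7 of 8 were higher at P28 than at P1, against 14.6% of all genes, and Dag1 was the one that did not pass, although its P28 libraries, like those of the other 7, all lay above those of P1 (17.9% of all genes).

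**Figure D1:**
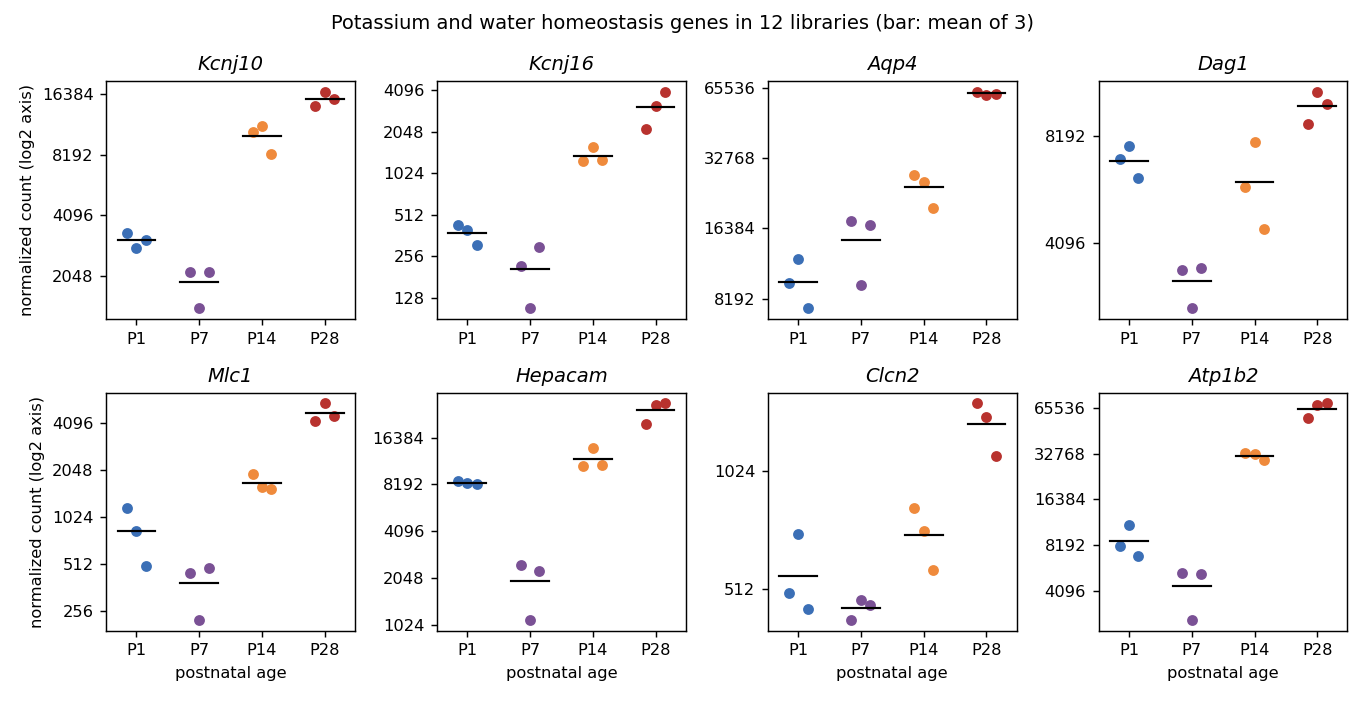
Normalized count (y axis, log2 scale, a separate range for each gene) of the 8 genes in each library (points) by age (x axis), with a bar at the mean of 3 libraries. Aqp4 climbs from a mean of 9686 at P1 to 61821 at P28, while Hepacam drops from 8376 to 1947 at P7 before it reaches 24614.

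The steps did not carry equal weight in every library set. For P7 against P1, 5 calls became 2 without P1 replicate 1, 3 without P1 replicate 2, and 3 without P7 replicate 2, of which 1 was a rise of Aqp4. The share of all genes called fell as well, from 7.70% to 4.21%, 4.39% and 4.22% in these fits. For P28 against P14, 8 calls became 4 without P14 replicate 1 and 2 without P14 replicate 3, while each gene kept its direction. Over all genes, the share called went from 14.4% to 9.21% and 8.03%.

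**Figure D2:**
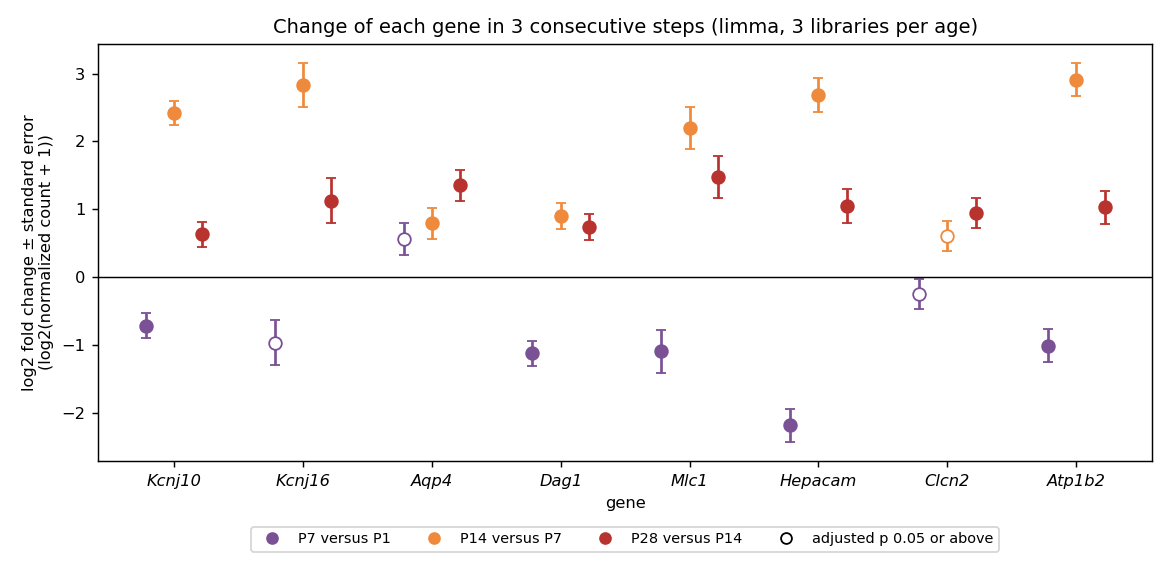
Log2 fold change with its standard error (y axis) of the 8 genes (x axis) in the 3 consecutive steps, from limma with 3 libraries per age, where open circles have an adjusted p of 0.05 or above. The step from P7 to P14 (orange) is the largest for 5 genes, with 2.91 for Atp1b2, and in the last step (red) all 8 genes gained, from 0.63 for Kcnj10 to 1.47 for Mlc1.

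Kcnj10 and Kcnj16 encode inward rectifier subunits that join into one channel, which sets the negative resting potential of astrocytes and lets potassium in. Kcnj10 lies on the forward strand of chromosome 1 and Kcnj16 on that of chromosome 11. Their promoters are shown because the channel pair rose together while the sequences of the windows shown differ. Each window runs from 250 bases before to 50 bases after a RefSeq start that is also the start of the gene in GENCODE M21, on GRCm38, and is given 5′ to 3′ on the forward strand. Kcnj10 is at chr1:172340960-172341259 and Kcnj16 at chr11:110967783-110968082. Capitals mark TTGGC (the short motif bound by nuclear factor I), ACAAAG (a SOX motif) and TTCNNNGAA (a STAT motif), searched on both strands and chosen after the promoters had been seen.
Kcnj10: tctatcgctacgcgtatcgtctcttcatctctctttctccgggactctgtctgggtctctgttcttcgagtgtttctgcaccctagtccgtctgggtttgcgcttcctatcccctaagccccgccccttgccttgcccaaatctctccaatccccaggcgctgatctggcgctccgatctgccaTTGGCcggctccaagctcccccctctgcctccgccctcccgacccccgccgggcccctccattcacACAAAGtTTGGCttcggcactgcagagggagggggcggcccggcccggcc
Kcnj16: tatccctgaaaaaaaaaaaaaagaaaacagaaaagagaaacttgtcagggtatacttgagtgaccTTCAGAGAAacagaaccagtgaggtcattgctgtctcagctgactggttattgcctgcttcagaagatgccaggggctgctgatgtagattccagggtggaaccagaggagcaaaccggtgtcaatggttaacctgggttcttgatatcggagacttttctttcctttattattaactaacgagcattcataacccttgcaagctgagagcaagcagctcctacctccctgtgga
The Kcnj10 window had a G and C content of 63.7% and held TTGGC at -66 and 8 from the start and ACAAAG at 1. The Kcnj16 window had 44.3%, below the median of 52.7% over all 32851 promoters of the table, and held TTCAGAGAA at -185. TTGGC was present in 46.7% of all promoters, ACAAAG in 18.7% and TTCNNNGAA in 8.3%, so these matches are a description of the letters and no more. Kcnj16 has 3 further promoter windows in the table. Of these, the window starting at 110997237 held TTGGC at -166, as Kcnj10 did elsewhere in its window. The window starting at 111023610 held it at -248 and -239, and the window starting at 111019335 held none of the motifs.

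Kcnj10 had normalized counts of 3336, 2819 and 3099 at P1, 2148, 1412 and 2151 at P7, 10667, 11391 and 8258 at P14, and 14234, 16798 and 15519 at P28. The libraries of each age stood apart from those of every other age, lowest at P7 and highest at P28. Kcnj10 fell by 0.72 ± 0.18 (SE, n = 3 per age) on the log2 scale from P1 to P7 (limma, adjusted p = 0.0242), rose by 2.42 ± 0.18 to P14 (limma, adjusted p = 8.26e-07) and by 0.63 ± 0.18 to P28 (limma, adjusted p = 0.0318). Its level at P28 was 5.03-fold that at P1 (limma, adjusted p = 3.54e-07). The fall to P7 missed the threshold without P1 replicate 1, P1 replicate 3 or P7 replicate 2 (limma, adjusted p = 0.106, 0.0617 and 0.105), and the last rise without P14 replicate 1, P14 replicate 3, P28 replicate 2 or P28 replicate 3 (adjusted p from limma between 0.0565 and 0.133).

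Kcnj16 had normalized counts of 430, 394 and 308 at P1, 217, 107 and 298 at P7, 1249, 1594 and 1272 at P14, and 2125, 3121 and 3979 at P28. All libraries of P7 were below those of P1, by a narrow gap of 298 to 308, and the ages after P7 did not overlap. The change from P1 to P7 was -0.97 ± 0.33 on the log2 scale and did not pass the test (limma, adjusted p = 0.0945). Kcnj16 rose by 2.83 ± 0.33 from P7 to P14 (limma, adjusted p = 2.84e-05) and by 1.13 ± 0.33 from P14 to P28 (limma, adjusted p = 0.0332), to 7.94 times its P1 level. The last step lost its call without any 1 of the 3 P14 libraries or of P28 replicates 2 and 3 (adjusted p from limma between 0.0561 and 0.103), and the first step gained it without P7 replicate 3 (limma, adjusted p = 0.0393).

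The balance within the pair moved by less than either gene. Kcnj16 stood at 12.9%, 14% and 9.98% of the Kcnj10 count at P1, at 10.1%, 7.67% and 13.9% at P7, at 11.7%, 14% and 15.4% at P14 and at 14.9%, 18.6% and 25.6% at P28. Ages overlapped in this ratio, which is not corrected for length, so only its course over time can be read. Its mean log2 value was -3.04 (P1), -3.29 (P7), -2.88 (P14) and -2.38 (P28), and the ages differed in an exact permutation test on the F statistic (two-sided, 15400 partitions, p = 0.0386, adjusted over 5 ratios p = 0.0386).

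Kcnj10 held most of the inward rectifier signal at 3 of the 4 ages. Per kilobase of exon, its share of 15 inward rectifier subunits was 73.9% ± 5.61 (P1, SD, n = 3), 35.2% ± 12.2 (P7), 62.1% ± 2.26 (P14) and 66.3% ± 3.99 (P28). At P7 its share was lowest in replicate 2, with 21.6%, where Kcnj13, a channel of the choroid plexus epithelium, took 42.7%. In the other 2 libraries of P7, Kcnj10 held 45.2% and 38.8% and Kcnj13 24.6% and 28.9%. Over the 3 libraries of P7, Kcnj13 held 32.1% ± 9.47 of the family, against 4.25% ± 2.37 at P1, and its count rose by 3.39 ± 0.94 on the log2 scale from P1 to P7 (limma, adjusted p = 0.041), a call lost without P7 replicate 2 (3.05 ± 1.08, limma, adjusted p = 0.162). The ependyma and choroid plexus markers were also highest at P7 in replicate 2, with 128513, and their part in these shares was not tested. Kcnj16 held 12.4% of the family (P1), 5.29% (P7), 11.7% (P14) and 17.8% (P28).

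Of 10 tested members of the remaining inward rectifier family, 3 rose from P1 to P7, 2 rose and 1 fell from P7 to P14, and 3 fell from P14 to P28, with a median log2 fold change of -1.61 in the last step. Over all genes tested, 3.47% rose and 4.24% fell to P7, 10.8% rose and 10.0% fell to P14, and 5.68% rose and 8.76% fell to P28. Counts in this and the later gene lists stand beside these shares, and no list was tested against them. Kcnj3, a subunit of G protein-gated channels, rose by 2.99 ± 0.34 from P1 to P7 (limma, adjusted p = 0.000129). Kcnj8, the channel of pericytes and other mural cells, fell by 4.61 ± 1.03 from P14 to P28 (limma, adjusted p = 0.00963). Of 10 tested leak channels with paired pore domains, 1 rose from P1 to P7, 4 rose and 1 fell to P14, and 2 fell to P28. Kcnk1, the most abundant of these per kilobase, rose by 3.03 ± 0.45 to P7 and by 1.57 ± 0.45 to P14 (limma, adjusted p = 0.000953 and 0.0235), and its mean counts were 43.5, 351, 998 and 876 from P1 to P28.

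Atp1b2 encodes the glial beta subunit of the sodium pump, which carries the catalytic alpha subunit to the membrane and also acts as an adhesion molecule. Its normalized counts were 8034, 11158 and 6973 at P1, 5377, 2640 and 5312 at P7, 33036, 32581 and 29538 at P14, and 56332, 68073 and 69866 at P28. The 4 ages did not overlap, and P7 replicate 2 was the lowest of all libraries. Atp1b2 fell by 1.02 ± 0.24 on the log2 scale from P1 to P7 (limma, adjusted p = 0.0191), rose by 2.91 ± 0.24 to P14 (limma, adjusted p = 2.07e-06) and by 1.02 ± 0.24 to P28 (limma, adjusted p = 0.0136). At P28 it was 7.54-fold its P1 level (limma, adjusted p = 7.77e-07). The fall to P7 lost its call without P1 replicate 1, P1 replicate 2 or P7 replicate 2 (limma, adjusted p = 0.0534, 0.0956 and 0.0535), and the last rise without P14 replicate 3 (limma, adjusted p = 0.0552).

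Within the beta subunits, the share of Atp1b2 dipped and recovered. It held 78.0% ± 5.31 (SD, n = 3) of the signal per kilobase of the 3 subunits (P1), 50.8% ± 9.02 (P7), 87.7% ± 1.54 (P14) and 92.5% ± 1.17 (P28), with 55.7%, 40.4% and 56.3% in the 3 libraries of P7. Atp1b1, the subunit most abundant in neurons, held 31.0% ± 2.48 at P7 and 5.26% ± 0.80 at P28, although its level per kilobase was 921 at P7 and 1285 at P28.

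**Figure D3:**
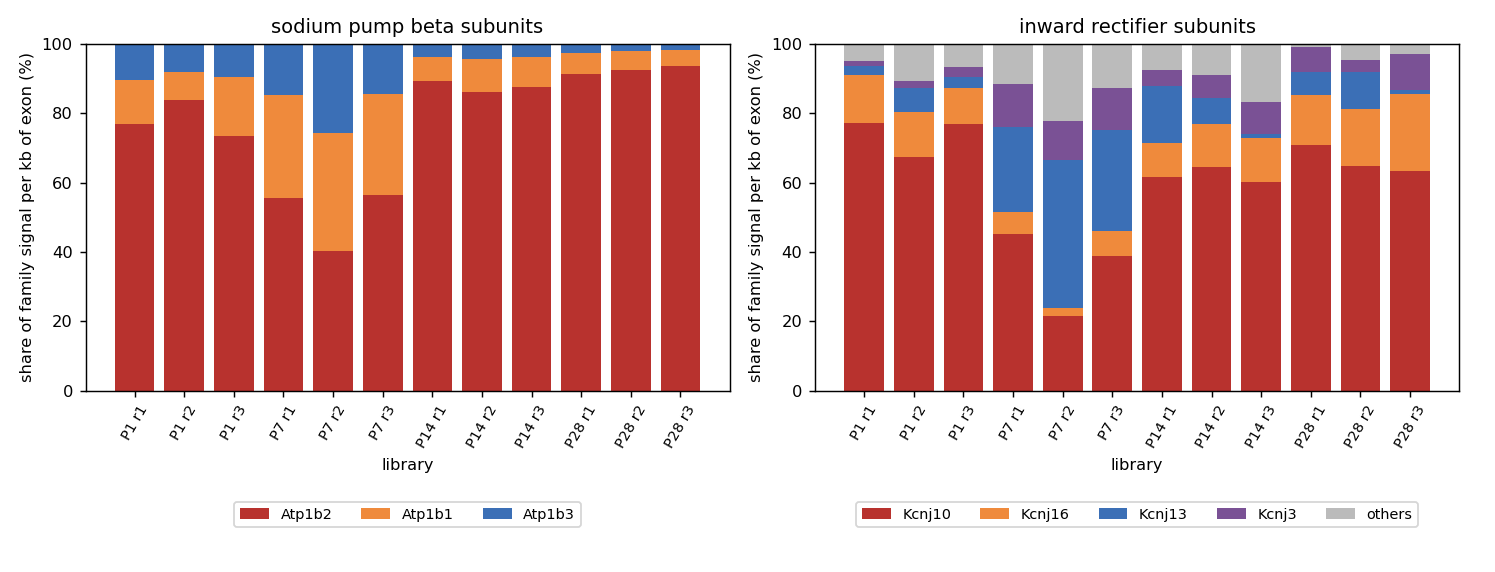
Share (y axis, percent of the summed signal per kilobase of exon) of each sodium pump beta subunit (left) and of the inward rectifier subunits (right, genes beyond the 4 named are in grey) in each of the 12 libraries (x axis, r for replicate). Atp1b2 falls to 40.4% and Kcnj10 to 21.6% in P7 replicate 2, where Kcnj13 reaches 42.7%.

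Of 10 other pump subunits tested, 2 rose and 1 fell from P1 to P7, 5 rose and 2 fell to P14, and 2 rose and 1 fell to P28. Fxyd1, a regulator of the pump, rose in all 3 steps, by 1.97 ± 0.34, 2.35 ± 0.34 and 2.16 ± 0.34 (limma, adjusted p = 0.00276, 0.00022 and 0.0016), and Fxyd6 of the same family fell by 2.99 ± 0.35 and 2.40 ± 0.35 in the last 2 (limma, adjusted p = 3.19e-05 and 0.000838). Among 5 tested cotransporters that move chloride with sodium or potassium, 3 rose from P7 to P14, including Slc12a2, which loads cells with chloride, by 1.02 ± 0.27 (limma, adjusted p = 0.014).

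Aqp4 encodes the main water channel of astrocytes, and it was the one of the 8 genes whose mean was higher at P7 than at P1, by a difference that did not pass the test. Its normalized counts were 9506, 12115 and 7438 at P1, 17558, 9324 and 16897 at P7, 27674, 25745 and 20033 at P14, and 62819, 60996 and 61647 at P28. P7 replicate 2 lay within the range of P1 and the other libraries of P7 lay above it, while P14 and P28 stood clear of the earlier ages. Its log2 change from P1 to P7 was 0.56 ± 0.23 and did not pass the test (limma, adjusted p = 0.186). Without P7 replicate 2 it was 0.86 (limma, adjusted p = 0.02). Aqp4 rose by 0.79 ± 0.23 from P7 to P14 (limma, adjusted p = 0.0263), a call lost without P7 replicate 2, P14 replicate 1 or P14 replicate 2 (limma, adjusted p = 0.105, 0.101 and 0.0902). It rose by 1.35 ± 0.23 from P14 to P28 (limma, adjusted p = 0.00248) and reached 6.51-fold its P1 level (limma, adjusted p = 1.02e-06). An antisense gene of the annotation overlaps Aqp4 over 7896 bases, and whether strand was used in counting is not given in the sources used here.

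Aqp4 made up nearly all of the aquaporin signal at each age. Per kilobase of exon it held 94.0% ± 1.32 (SD, n = 3) of 11 aquaporins (P1), 94.9% ± 2.83 (P7), 97.5% ± 0.79 (P14) and 99.1% ± 0.33 (P28). Of 4 other aquaporins tested, 1 rose from P1 to P7 and 1 from P7 to P14. These were Aqp6 by 4.17 ± 1.02 and Aqp9 by 3.32 ± 0.89 on the log2 scale (limma, adjusted p = 0.0212 and 0.0162). Both were low, with Aqp6 at 2.11 per kilobase at P1 and 28.4 at P7. Aqp9 stood at 3.00 at P7 and 31.9 at P14, while Aqp4 stood at 1640 already at P1. Aqp11, an aquaporin of intracellular membranes, came second at P1 with 4.44%. Aqp1, the water channel of the choroid plexus, was highest at P7 with a mean count of 159 against 24.1 at P1, and this change did not pass the test (log2 fold change 2.70 ± 1.49, limma, adjusted p = 0.369).

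Dag1 encodes dystroglycan, the receptor that ties the dystrophin complex, and with it the water channel, to laminin and other matrix proteins. The gene lies on the reverse strand of chromosome 9, and its promoter is shown because Dag1 had the smallest fold of the 8 genes between P1 and P28. The window at chr9:108263909-108264208 is defined as above, read on the reverse strand, with TTGGC in capitals, here in its reverse complement GCCAA.
Dag1: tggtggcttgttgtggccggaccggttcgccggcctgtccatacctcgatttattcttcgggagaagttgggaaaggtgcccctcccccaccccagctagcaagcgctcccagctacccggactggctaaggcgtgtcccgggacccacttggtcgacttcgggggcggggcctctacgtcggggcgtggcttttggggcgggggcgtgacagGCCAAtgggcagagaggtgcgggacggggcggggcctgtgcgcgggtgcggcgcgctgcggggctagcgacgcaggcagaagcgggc
Its G and C content was 69.7%, and GCCAA began at -37 from the start. A second Dag1 window in the table, with a start further downstream, had 75.3%. It held GCCAA at -180, in the stretch shared with the window shown, and TTGGC at -48.

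Dag1 had normalized counts of 7052, 7689 and 6257 at P1, 3440, 2693 and 3499 at P7, 5891, 7900 and 4510 at P14, and 8875, 10914 and 10064 at P28. P7 lay below every other library, P1 and P14 overlapped, and P28 lay above them. Dag1 fell by 1.13 ± 0.19 on the log2 scale from P1 to P7 (limma, adjusted p = 0.00219) and rose by 0.90 ± 0.19 to P14 (limma, adjusted p = 0.00364), and both calls held with any 1 library left out. It rose by 0.74 ± 0.19 to P28 (limma, adjusted p = 0.0197), a call lost without P14 replicate 1 or P14 replicate 3 (limma, adjusted p = 0.059 and 0.0896). Against P1, P28 was 1.42-fold, with a log2 interval from 0.10 to 0.91, and did not pass the test (limma, adjusted p = 0.0518), while it did with TMM scaling, with edgeR on recovered reads, with only the 2 ages in the fit (adjusted p = 0.0427, 0.0499 and 0.0448), and without P7 replicate 2, P14 replicate 2, P14 replicate 3 or P28 replicate 1 (adjusted p from limma between 0.0297 and 0.0469).

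Aqp4 and Dag1 parted between P1 and P7. The Aqp4 count was 135%, 158% and 119% of that of Dag1 at P1, 510%, 346% and 483% at P7, 470%, 326% and 444% at P14, and 708%, 559% and 612% at P28. All libraries after P1 lay above those of P1, P7 and P14 overlapped, and P28 lay above both. The mean log2 ratio was 0.45 ± 0.20 (P1, SD, n = 3), 2.14 ± 0.30 (P7), 2.03 ± 0.28 (P14) and 2.64 ± 0.17 (P28) (exact permutation test, two-sided, p = 0.00117, adjusted over 5 ratios p = 0.00584).

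Of 16 genes of the dystrophin complex, 1 fell from P1 to P7, 5 rose and 1 fell to P14, and 5 rose and 1 fell to P28, with median log2 fold changes of -0.48, 0.28 and 0.70. Dmd, the gene of dystrophin and its short brain forms, fell by 0.59 ± 0.16 and then rose by 0.77 ± 0.16 and 0.70 ± 0.16 (limma, adjusted p = 0.0381, 0.00358 and 0.0118), the first of which was lost without P7 replicate 2 (limma, adjusted p = 0.163). Dtna, the gene of alpha-dystrobrevin and the most abundant of the list per kilobase, rose by 1.68 ± 0.17 to P14 and by 1.03 ± 0.17 to P28 (limma, adjusted p = 1.11e-05 and 0.00214). Of 17 genes for the addition of sugars to dystroglycan, 0 rose in any of the 3 steps. From P1 to P7 and from P14 to P28, 1 fell in each step, and 0 were called from P7 to P14. Over the last 2 steps together, 6 were higher at P28 than at P7, where 16.2% of all genes tested were. Pomt2 was the one that fell to P7, by 1.27 ± 0.30 (limma, adjusted p = 0.018, and 0.057 without P7 replicate 2), and Pomgnt1 was the one that fell from P14 to P28, by 1.21 ± 0.36 (limma, adjusted p = 0.0362). Among 16 ligands of dystroglycan, 3 fell and 1 rose from P1 to P7, 3 rose from P7 to P14 and 3 fell from P14 to P28. The laminin chain Lama1 fell by 2.55 ± 0.30 from P14 to P28 (limma, adjusted p = 0.00029), with mean counts of 1340 at P1 and 76.8 at P28, and Lamb2 fell by 1.62 ± 0.23 from P1 to P7 and rose by 0.78 ± 0.23 to P14 (limma, adjusted p = 0.000678 and 0.0274).

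Hepacam encodes GlialCAM, the adhesion protein that brings both MLC1 and the chloride channel ClC-2 to cell contacts, and it had the largest fall of the 8 genes from P1 to P7. Its normalized counts were 8577, 8346 and 8206 at P1, 2472, 1102 and 2268 at P7, 10727, 14089 and 10914 at P14, and 20037, 26690 and 27114 at P28. The 4 ages did not overlap, and the 3 libraries of P1 lay close together while P7 replicate 2 was the lowest of all. Hepacam fell by 2.19 ± 0.25 on the log2 scale from P1 to P7 (limma, adjusted p = 0.00012), to 0.219 of its P1 level, and rose by 2.69 ± 0.25 to P14 (limma, adjusted p = 4.09e-06), with either call kept when any 1 library was left out. It rose by 1.05 ± 0.25 to P28 (limma, adjusted p = 0.0131), a call lost without P14 replicate 1 or P14 replicate 3 (limma, adjusted p = 0.0519 and 0.0544). P28 was 2.91-fold above P1 (limma, adjusted p = 0.000274).

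Mlc1 encodes a membrane protein of astrocyte contacts whose place there depends on GlialCAM. It had normalized counts of 1172, 831 and 493 at P1, 450, 224 and 483 at P7, 1935, 1591 and 1543 at P14, and 4163, 5428 and 4502 at P28. P1 and P7 did not overlap but nearly touched, at 493 in P1 replicate 3 and 483 in P7 replicate 3, and the later ages were well separated. Mlc1 fell by 1.10 ± 0.31 from P1 to P7 (limma, adjusted p = 0.0448), but the call was lost in 8 of the 12 fits that left out 1 library (adjusted p from limma between 0.052 and 0.221), with 0.221 without P1 replicate 1 and 0.208 without P7 replicate 2. It rose by 2.20 ± 0.31 to P14 (limma, adjusted p = 0.00017) and by 1.47 ± 0.31 to P28 (limma, adjusted p = 0.00761), and both rises held with any 1 library left out. P28 was 5.96-fold above P1 (limma, adjusted p = 2.56e-05).

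Clcn2 encodes ClC-2, an inwardly rectifying chloride channel for which GlialCAM serves as a partner, and it moved least before P14. Its normalized counts were 498, 707 and 454 at P1, 426, 480 and 466 at P7, 820, 717 and 571 at P14, and 1518, 1405 and 1114 at P28. P1 overlapped both P7 and P14, whereas P14 lay above P7 and P28 above all. Its change from P1 to P7 was -0.25 ± 0.22 on the log2 scale (interval -0.72 to 0.23, limma, adjusted p = 0.658) and 0.60 ± 0.22 from P7 to P14 (limma, adjusted p = 0.0691), and neither passed. The latter passed without P14 replicate 3 or P28 replicate 3 (limma, adjusted p = 0.048 and 0.0487). Clcn2 rose by 0.94 ± 0.22 from P14 to P28 (limma, adjusted p = 0.0132), a call lost without P14 replicate 3 (limma, adjusted p = 0.0581), and ended 2.46-fold above P1 (limma, adjusted p = 0.000482). Per kilobase of exon it held 25.6% of the signal of 7 CLC genes (P1), 21.3% (P7), 24.4% (P14) and 35.6% (P28). Its annotated ends overlap Fam131a over 85 bases and Polr2h over 82 bases on the other strand, at mean counts of 181 and 32 for those genes.

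The partners of GlialCAM changed by other amounts than Hepacam itself. Mlc1 stood at 13.7%, 9.97% and 6.02% of the Hepacam count at P1, at 18.2%, 20.4% and 21.3% at P7, at 18.0%, 11.3% and 14.1% at P14 and at 20.8%, 20.3% and 16.6% at P28. P7 lay above P1 in every library, and the ages differed (mean log2 ratios -3.42, -2.33, -2.81 and -2.39 from P1 to P28, exact permutation test, two-sided, p = 0.0201, adjusted over 5 ratios p = 0.0252). Clcn2 stood at 17.3%, 43.6% and 20.6% of Hepacam at P7 and between 4.11% and 8.48% in all libraries of the other ages. Its mean log2 ratio was -3.95 (P1), -2.004 (P7), -4.09 (P14) and -4.19 (P28) (exact permutation test, two-sided, p = 0.0118, adjusted over 5 ratios p = 0.0196), and the spread between the highest and lowest mean was 2.19, or 1.78 without P7 replicate 2. The smallest p that these partitions can give is 6.49e-05.

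**Figure D4:**
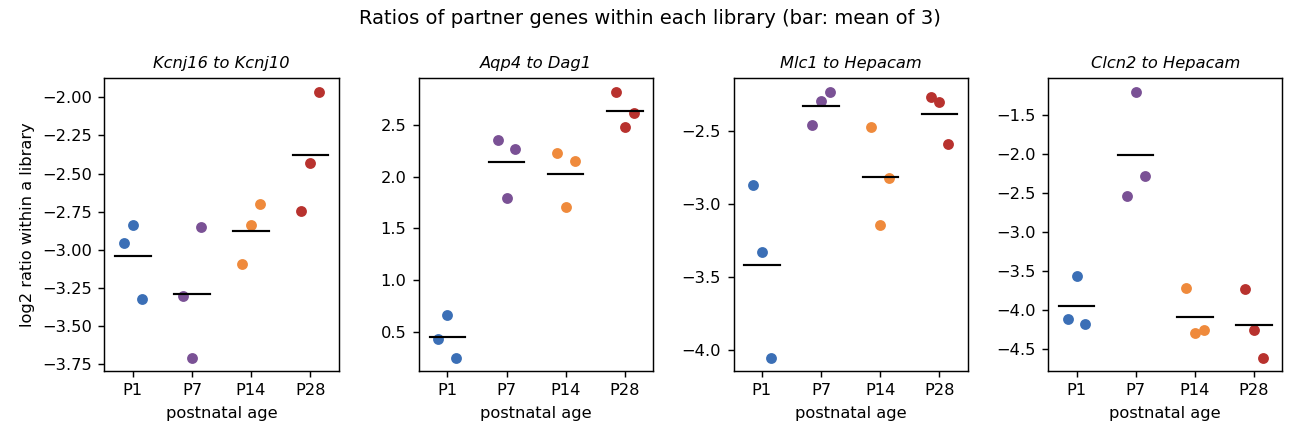
Log2 ratio of the normalized counts of 4 pairs within each library (y axis, not corrected for length, a separate range for each pair) by age (x axis), with a bar at the mean of 3 libraries. Aqp4 to Dag1 steps up from a mean of 0.45 at P1 to 2.14 at P7, and Clcn2 to Hepacam stands at -2.004 at P7 against -3.95 at P1 and -4.09 at P14.

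Other genes of the MLC1 complex and of volume regulation were followed from lists. Of 6 genes known as neighbours of MLC1 or of astrocyte contacts, 1 rose and 1 fell from P1 to P7, 5 rose in the step to P14 and 2 in the step to P28, and for 4 of the 6 the last step was the smaller one (limma, adjusted p under 0.05). Over all genes tested, 10.8% rose to P14 and 5.68% to P28, and for 4.44% the change of the last step was the lower one. Gpr37l1, an astrocyte receptor, rose by 2.12 ± 0.40 from P1 to P7 and by 3.86 ± 0.40 to P14 (limma, adjusted p = 0.00408 and 1.09e-05), while Hepacam fell in the first of these steps. Gja1, the gap junction gene that also stands in the astrocyte marker list, fell by 1.21 ± 0.21 and then rose by 2.10 ± 0.21 and 1.00 ± 0.21 (limma, adjusted p = 0.00283, 9.67e-06 and 0.00756). Of 15 chloride and volume channels tested, 3 fell and 1 rose from P1 to P7, 4 rose and 1 fell to P14, and 1 rose and 2 fell to P28. In that last step 5.68% of all genes tested rose and 8.76% fell. Lrrc8a, the required subunit of the volume-regulated anion channel, fell by 0.64 ± 0.16 and rose by 1.71 ± 0.16 (limma, adjusted p = 0.0221 and 4.06e-06), with the fall lost without P7 replicate 2 (limma, adjusted p = 0.0979). Ttyh1, a glial membrane protein, fell by 2.01 ± 0.21, then rose by 2.02 ± 0.21 and 0.78 ± 0.21 (limma, adjusted p = 7.46e-05, 1.17e-05 and 0.0243).

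Whether a gene gained more before or after P14 was tested as the difference between the last step and the one before it, a contrast in which the P14 libraries enter both steps. The gain after P14 was the smaller one for 3 of the 8 genes, where 4.44% of all genes tested were lower in this contrast and 6.99% differed in either direction. The difference was -1.79 ± 0.31 on the log2 scale for Kcnj10 (limma, adjusted p = 0.00372), -1.88 ± 0.42 for Atp1b2 (limma, adjusted p = 0.0162) and -1.64 ± 0.43 for Hepacam (limma, adjusted p = 0.0332). Kcnj10 kept its call in all 12 fits that left out 1 library, whereas Atp1b2 lost it without any of the 3 P14 libraries (adjusted p from limma between 0.0584 and 0.0794), and Hepacam without those or P28 replicate 1 (adjusted p from limma between 0.0516 and 0.17). For Aqp4 the difference was 0.56, with an interval from -0.30 to 1.43, and for Clcn2 0.34, from -0.49 to 1.16, and neither passed the test (limma, adjusted p = 0.466 and 0.68). Kcnj16 had a difference of -1.70 ± 0.57 and missed the threshold (limma, adjusted p = 0.0888), but passed it without P7 replicate 3 or P28 replicate 3 (limma, adjusted p = 0.0476 and 0.0499), and Mlc1 and Dag1 had -0.73 and -0.16. Between P1 and P14, 5 of the 8 genes rose (10.4% of all genes), while Dag1, Hepacam and Clcn2 did not pass the test, with log2 fold changes of -0.23, 0.50 and 0.36. Mlc1 lost that call without P1 replicate 3, P14 replicate 1 or P14 replicate 2 (limma, adjusted p = 0.11, 0.0795 and 0.0553), and Hepacam gained it without P7 replicate 2 (limma, adjusted p = 0.0339). From P7 to P28 all 8 rose, against 16.2% of all genes, by 1.54 for Clcn2 up to 3.96 for Kcnj16.

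Compared per kilobase of exon, the order of the 8 genes changed at P7. At P1 the levels were 3069 ± 766 (SD, n = 3) for Atp1b2, 2503 ± 55.9 for Hepacam, 1640 ± 397 for Aqp4, 1174 ± 120 for Dag1 and 571 ± 47.9 for Kcnj10, followed by Mlc1, Clcn2 and Kcnj16 at 95.9 ± 15.9. The libraries of Atp1b2 and Hepacam overlapped at P1, as did those of Aqp4 and Dag1 and those of Mlc1 and Clcn2. At P7 Aqp4 came first with 2471 ± 775, overlapping Atp1b2 with 1563 ± 550, and Hepacam had dropped to 582 ± 221, overlapping Dag1. At P14 Atp1b2 led with 11161 ± 669, and Aqp4 with 4146 ± 673 overlapped Hepacam with 3558 ± 564. At P28 the levels ran from 22786 ± 2587 for Atp1b2, 10469 ± 156 for Aqp4 and 7354 ± 1186 for Hepacam to 781 ± 236 for Kcnj16 and 430 ± 66.6 for Clcn2, and only Mlc1 and Dag1, at 1677 ± 234 and 1669 ± 172, overlapped among neighbours.

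The genes most like each member were found by the root mean square difference between centred log2 profiles over the 12 libraries, in which 0 means the same course. Kcnj16 was closest to Atp1b2, at 0.221, beside a median of 1.83 over all other genes tested, so that the closest match of one member was another. The members were not alike as a set. By closeness to Dag1, Atp1b2 came at rank 8984 and Kcnj16 at rank 9153 of 15463 genes, and by closeness to Clcn2, Atp1b2 came at rank 8381. Atp1b2 was closest to Slc1a2, the main glutamate transporter of astrocytes and one of the astrocyte markers, at 0.20, then to S1pr1 at 0.22 and to Kcnj16. Kcnj10 was closest to Pfkm, the muscle-type phosphofructokinase of glycolysis, at 0.223. Mlc1 was closest to Mfap3l and Nwd1 (0.292 and 0.306), and Hepacam to Ttpa, Ndrg2 and Ppap2b (0.253 to 0.268). Aqp4 was closest to Psd2, Sned1 and Nebl (0.277 to 0.313), of which Psd2 had mean counts of 854, 913, 1770 and 4573 from P1 to P28. Dag1 was closest to Spred1, Aldh6a1 and Gna13 (0.147 to 0.183) and Clcn2 to Capn2, Prrx1 and Prdx1 (0.15 to 0.158). The likeness is a description over libraries that share an age.

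The median of the 8 genes ran close to the summed astrocyte markers. Single genes departed from the markers in both directions, which was common over all genes tested. Relative to the mean of P1 on the log2 scale, the median of the 8 genes was -0.73, -1.53 and -0.60 in the P7 libraries, and the summed astrocyte markers were at -0.71, -1.56 and -0.86. At P14 the median was 1.42, 1.23 and 1.03 beside 1.26, 1.43 and 1.13, and at P28 it was 2.31, 2.57 and 2.43 beside 2.26, 2.33 and 2.51. The oligodendrocyte markers went another way in the last step, from at least 7.33 at P14 to at most 6.08 at P28, while all 8 genes rose, and their part in the rise from P7 to P14 was not tested.

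**Figure D5:**
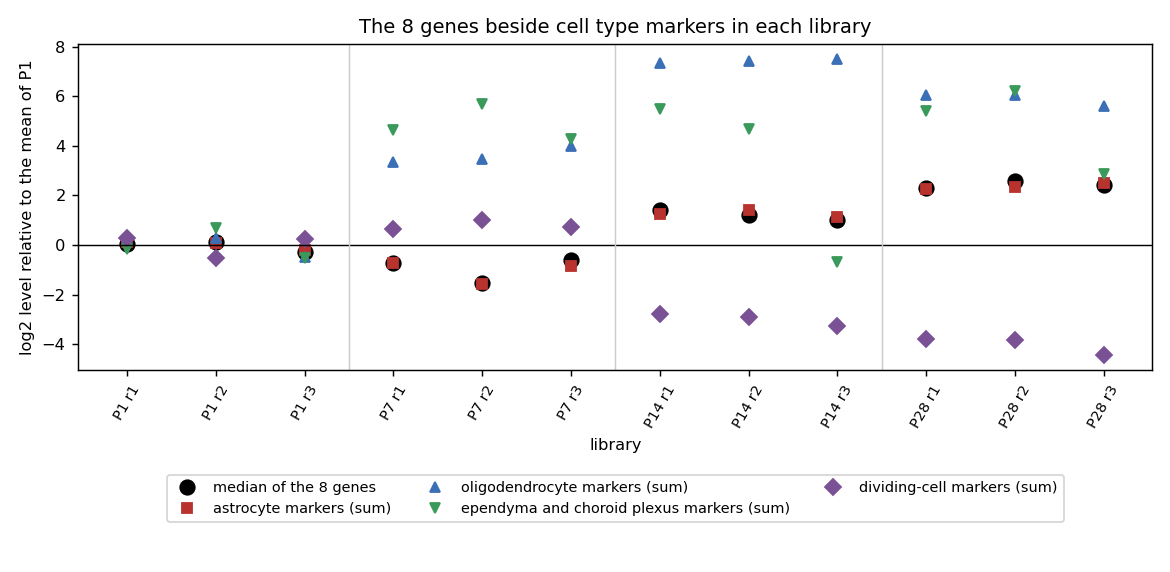
Log2 level relative to the mean of the P1 libraries (y axis) of the median of the 8 genes and of the summed markers of 4 cell classes in each library (x axis, r for replicate). The black circles lie close to the red squares in every library, down to -1.53 beside -1.56 in P7 replicate 2, while oligodendrocyte markers peak at 7.52 at P14.

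With each library centred on the mean log2 level of the 12 astrocyte markers, the fit gives changes relative to those markers, and the median of all genes tested then moved by 0.92, -2.11 and -1.12 in the 3 steps. On this scale the median of the 8 genes was -0.11, 0.29 and 0.03. Calls were common on this scale, with 26.6%, 77.5% and 45.4% of all genes called in the 3 steps and 85.2% from P1 to P28. Of the 8 genes, 2, 6 and 0 were called in the 3 steps and 6 from P1 to P28, so calls among them were no more common. From P1 to P7, Hepacam fell by 1.31 relative to the markers (limma, adjusted p = 0.000606) and Aqp4 rose by 1.44 (limma, adjusted p = 0.000129), and the other 6 genes did not pass the test. From P7 to P14, Atp1b2, Kcnj16 and Hepacam rose by 0.89, 0.81 and 0.67 relative to the markers, and Aqp4, Dag1 and Clcn2 fell by 1.23, 1.12 and 1.42. From P14 to P28 none of the 8 passed (limma, 0 calls, and 0 at an unadjusted p under 0.05), with adjusted p between 0.14 and 0.924. From P1 to P28, Kcnj16, Atp1b2 and Aqp4 rose by 0.85, 0.77 and 0.56 relative to the markers, and Dag1, Clcn2 and Hepacam fell by 1.64, 0.85 and 0.60.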

How the data were processed

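RNA-seq of 12 libraries was analysed, grouped by the age in the sample titles. According to the paper's methods and the submitters' processing notes, the authors checked reads with FastQC (version 0.11.7) and MultiQC (version 1.11), aligned them to mm10 with STAR (version 2.5.0a), counted them on UCSC gene models and normalized the counts with DESeq2 (version 1.30.1). The paper's methods give other versions of FastQC, MultiQC and DESeq2. Deposited values are normalized counts (a signal), and dividing each library by its smallest value above 0 gave whole reads for 100% of the values (tolerance 0.01). The names of all 12 columns carry P28, and the ages rest on the labels, which pair each column with a sample. Total reads limit the precision, and 27 symbols had been turned into dates.

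limma (version 3.58.1, R 4.3.3) was run on log2(value + 1), which understates changes of low genes, with a mean per age and a variance trend, over the 15464 genes that reached 10 in 3 or more libraries. The threshold was a Benjamini-Hochberg adjusted p under 0.05. The labels name replicates but not animals, so p-values measure the spread between samples, which may be technical. The F statistic of a partner ratio was tested over all partitions of the libraries, with adjustment over 5 ratios, of which 1 is not reported here. Level per kilobase used exons of GENCODE M21 on GRCm38, and promoters came from RefSeq on the same build, with windows for 6 of the 8 genes. The members and lists were chosen with earlier results of these data known. Named genes were the members, per list the 2 most abundant per kilobase and the largest rise and fall called in each step, and the 3 genes most like each member.

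Alternatives were edgeR (version 4.0.16) on recovered reads, which called 1093, 3055 and 1982 genes in the 3 steps, DESeq2 (version 1.42.0), which called 1812, 3916 and 3296, TMM scaling, library totals alone, centring on astrocyte markers, pseudocounts of 0.5 and 10, other filters, no variance trend, only the ages compared, the unadjusted threshold, the replicate number as a block, and each library left out. Named genes beyond the 8 were also fitted without P7 replicate 2, which was chosen after seeing the data. The code was tested on simulated data.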

Additional observations from a re-analysis of the deposited data

How the results depend on the processing

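Counts of called genes among the 8 stayed within 1.5 times the reported count for P14 against P7, P28 against P1, P14 against P1 and P28 against P7 under each alternative run, although centring on astrocyte markers split the 6 calls into 3 higher and 3 lower for the first 3 of these and the 7 into 4 and 3 for the last. With that centring, 77.5%, 85.2%, 51.8% and 93.6% of all genes were called in these comparisons, in the order named. For P7 against P1, 5 calls became 2 without a variance trend and 2 (1 higher, 1 lower) with centring on astrocyte markers. Of all genes, 7.70% were called in the reported fit, and 4.48% and 26.6% in these 2. For P28 against P14, 8 calls became 5 with library totals alone, 5 with only the ages compared, 3 without a variance trend and 0 with centring on astrocyte markers. The share of all genes called was 14.4% in the reported fit, and 15.5%, 4.95%, 10.8% and 45.4% in these, in the same order. For the late against the early rise, 3 calls became 1 without a variance trend and 1, a higher value, with centring on astrocyte markers. Here the share over all genes was 6.99% in the reported fit, 4.66% without the trend and 12.6% with the centring. With each library left out in turn, the counts ranged from 2 to 6 (P7 against P1), 6 to 8 (P14 against P7), 2 to 8 (P28 against P14), 7 to 8 (P28 against P1), 4 to 6 (P14 against P1), 8 to 8 (P28 against P7) and 1 to 4 (late against early), with the late rise at 1 without P14 replicate 1, 2 or 3. The cause was not tested.

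Tested by the spread of the medians in place of the F statistic, none of the 4 partner ratios given above passed (0 of 4, adjusted exact permutation p between 0.0584 and 0.0899), with spreads of 0.88 for Kcnj16 to Kcnj10, 2.18 for Aqp4 to Dag1, 1.03 for Mlc1 to Hepacam and 1.97 for Clcn2 to Hepacam.

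Single log2 fold changes turned direction only with centring on astrocyte markers, except that of Dag1 in the late against the early rise, which ranged from -0.56 to 0.25 with each library left out, and was 0.25 without P14 replicate 2. With that centring, the values that turned were 0.16 for Kcnj10 and 0.63 for Clcn2 (P7 against P1), -1.23 for Aqp4, -1.12 for Dag1 and -1.42 for Clcn2 (P14 against P7), -0.37 for Kcnj10, -0.26 for Dag1 and -0.06 for Clcn2 (P28 against P14), -1.64 for Dag1, -0.60 for Hepacam and -0.85 for Clcn2 (P28 against P1), -0.042 for Mlc1, -0.65 for Hepacam and -0.79 for Clcn2 (P14 against P1), -0.88 for Aqp4, -1.39 for Dag1 and -1.48 for Clcn2 (P28 against P7), and 0.86 for Dag1 and 0.29 for Mlc1 (late against early). That scaling moves the median of all genes too, as given above, and library totals alone moved it to -0.34 and -0.35 in the last 2 steps, from -0.09 and -0.12.

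Whether the replicate number pairs the samples was not settled. The deviations of libraries with the same number correlated at -0.03 to 0.14, with 1 of 18 pairs over 0.1. These correlations were small, yet 9 of 12 libraries correlated best with their own number. With the replicate number as a block, the calls were 5, 7, 8, 7, 5, 8 and 3 in the 7 comparisons, as without it, and each of the 56 single results kept its call. edgeR and DESeq2 on recovered reads each moved 1 of the 56 past the threshold, Dag1 at P28 against P1 for edgeR and Clcn2 at P14 against P7 for DESeq2.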
